A study of Mus musculus with 8 samples.

Results

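Histone genes of the Hist1, Hist2, Hist3 and Hist4 clusters were followed in RNA of the outer renal cortex from mice on a high fat or a control diet. The members were every row of the deposited count table whose symbol begins with Hist and a digit, which gave 68 of 23504 gene symbols. By symbol, 54 of them belong to Hist1 on chromosome 13, 10 to Hist2 on chromosome 3, 3 to Hist3 on chromosome 11 and 1 to Hist4 on chromosome 6. By type, 6 encode linker histone H1, 18 encode H2A, 19 encode H2B, 12 encode H3 and 13 encode H4, and Hist3h2bb-ps, counted with H2B, is named as a pseudogene. No measured value entered this choice.

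These genes supply the core histones, H2A, H2B, H3 and H4, around which DNA is wrapped in nucleosomes, and the linker histone H1, which binds where DNA enters and leaves the nucleosome. Most are replication-dependent: they are transcribed together in S phase under the coactivator Npat, and their mRNAs usually end in a stem-loop bound by Slbp in place of a poly(A) tail. Replication-independent variants such as H3f3a, H3f3b, H2afz and H1f0 lie outside the clusters and are made through the cell cycle. Some clustered genes also yield polyadenylated mRNA in cells that no longer divide, as most cells of the renal cortex do not.

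All 8 libraries came from C57Bl6/J wild type mice that entered a diet at 6 weeks of age and stayed on it for 9 weeks, to 15 weeks of age. Libraries A, B, F and G came from the high fat diet and libraries I, J, L and M from the control diet. The outer cortex was dissected by hand after the capsule was removed, and ribosomal RNA was depleted with Ribo-Zero Gold, a step that does not need a poly(A) tail, although the sample descriptions also speak of enriched mRNA. The labels do not say that each library is a separate mouse, so p-values measure the spread between these libraries, which may be technical. In such bulk RNA, fewer cells of a type and less RNA per cell cannot be told apart.

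The libraries held 23503593 to 30781585 expected counts. Rn45s, the ribosomal precursor RNA, took 50.3% of control J and 1.23% to 13.3% of the others, and it was removed before scaling, which left 13993652 counts in control J and at most 30403685 elsewhere. Values below are normalized counts scaled to 1000000 per library (CPM) without Rn45s, so 1 CPM rests on 12.9 to 31.7 counts. All 10 markers of cortical tubules and glomeruli, such as Slc34a1 and Nphs1, were detected in every library, with sums of 39394 to 50569 CPM.

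The letters that mark a replication-dependent mRNA were found in many members. The stem-loop search used GGCNCTTTTCAGNGCC, read on the transcript strand only, and matched a GENCODE M21 transcript of 33 of the 68 members against 36 of 55341 genes in that annotation (0.0651%). The matches came in 2 forms, shown because they divide H4 from the other types, with the loop letters TTTC in capitals.
Stem-loop of 26 members of types H1, H2A, H2B and H3, Hist1h2ab and Hist1h3a among them: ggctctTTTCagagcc
Stem-loop of 7 H4 members, Hist1h4c and Hist4h4 among them: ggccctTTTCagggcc
A missing match says only that these letters are not in the annotated transcript.

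Upstream sequence differed by histone type. The search took the TATA box as TATAAA, the box bound by NF-Y as CCAAT, an octamer known from H2B promoters as ATTTGCAT and a box known from H1 promoters as AAACACA. They were searched on both strands of the 250 bases before the RefSeq start, for the 62 members that had an entry. No motif contains another. CCAAT was present in 51 of 62 members and in 33.8% of all 32851 entries of the same length, TATAAA in 29 of 62 and 12.4%, ATTTGCAT in 13 of 62 and 1.60%, and AAACACA in 9 of 62 and 6.25%. All 6 H1, 18 H2A and 16 H2B entries held CCAAT, whereas 3 of 12 H4 entries did. ATTTGCAT was limited to 7 of 18 H2A and 6 of 16 H2B entries, and AAACACA was found in 5 of 6 H1 entries. The 150 bases before the start are shown on the GRCm38.p6 build of RefSeq, plus strand, for 3 genes that were higher on the high fat diet and for Hist1h1c, an abundant H1 gene that was not called, with the 4 motifs, on either strand, in capitals.
Hist1h1a, chr13:23763518-23763667: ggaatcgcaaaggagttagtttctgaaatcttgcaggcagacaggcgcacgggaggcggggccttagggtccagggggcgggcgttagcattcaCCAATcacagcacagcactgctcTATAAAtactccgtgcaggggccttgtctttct
Hist1h2ab, chr13:23750938-23751087: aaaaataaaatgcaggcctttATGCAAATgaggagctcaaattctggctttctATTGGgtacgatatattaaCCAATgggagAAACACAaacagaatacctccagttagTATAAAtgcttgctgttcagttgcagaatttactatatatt
Hist1h2bk, chr13:22035671-22035820: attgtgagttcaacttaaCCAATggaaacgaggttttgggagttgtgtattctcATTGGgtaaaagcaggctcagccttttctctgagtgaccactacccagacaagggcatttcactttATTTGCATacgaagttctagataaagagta
Hist1h1c, chr13:23738657-23738806: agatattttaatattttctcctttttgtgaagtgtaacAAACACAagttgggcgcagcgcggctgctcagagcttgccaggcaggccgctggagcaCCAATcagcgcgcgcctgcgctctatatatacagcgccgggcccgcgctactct
The 4 stretches each hold CCAAT, and their other motifs differ. Among the 7 genes called below, 6 had an entry, of which 5 held CCAAT, 3 TATAAA, 2 ATTTGCAT and 1 AAACACA.

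A few members made most of the histone RNA. The 6 most abundant by CPM, Hist1h2bc, Hist1h1c, Hist2h2aa1, Hist1h4h, Hist1h4c and Hist1h1e, held 79.6% of all histone CPM (78.2% to 80.6% over the 8 libraries), and 29 of 68 members had a mean under 1 CPM. Levels per length were compared as FPKM rescaled to the library sizes used for CPM, over all 8 libraries. Hist1h2bc (H2B) led with 326 ± 27.6 (SD, n = 8), followed by Hist1h4c (H4) with 298 ± 37.9, Hist2h2aa1 (H2A) with 255 ± 22.4 and Hist1h4h (H4) with 234 ± 35.2. The mean ± SD ranges of neighbours overlapped. Next came Hist1h1c (H1) with 103 ± 19.3 and Hist1h4d (H4) with 59.9 ± 3.58, whose ranges overlapped no neighbour. Hist1h1e with 35.7 ± 4.85, Hist2h4 with 27.9 ± 5.26, Hist2h2ac with 25.6 ± 2.48 and Hist1h4m with 22.3 ± 2.63 completed the first 10. Among these last 4, each range overlapped the next.

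Between diets, 55 of the 68 members could be tested and 13 were too low. By edgeR's quasi-likelihood test with Benjamini-Hochberg adjustment over all 14711 tested genes, 7 members were called higher on the high fat diet at an adjusted p under 0.05, none was called lower and 48 were not called. Over all tested genes, 9.99% were called, 4.86% higher and 5.13% lower. At an unadjusted p under 0.05, 14 members were higher and 1 was lower, against 13.3% and 14.1% of all tested genes. DESeq2 called 9 members higher (6.4% of all tested genes) and limma-voom 7 (4.87%), and neither called any lower. All 7 called genes belong to Hist1, and each had a mean under 5 CPM. They include every type: Hist1h1a (H1), Hist1h2ab and Hist1h2ao (H2A), Hist1h2bk (H2B), Hist1h3a and Hist1h3c (H3), and Hist1h4j (H4). Of the 33 members with the stem-loop letters, 28 were tested and 3 called, and of the 35 without them 27 were tested and 4 called, beside the 4.86% called higher over all tested genes.

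**Figure D1:**
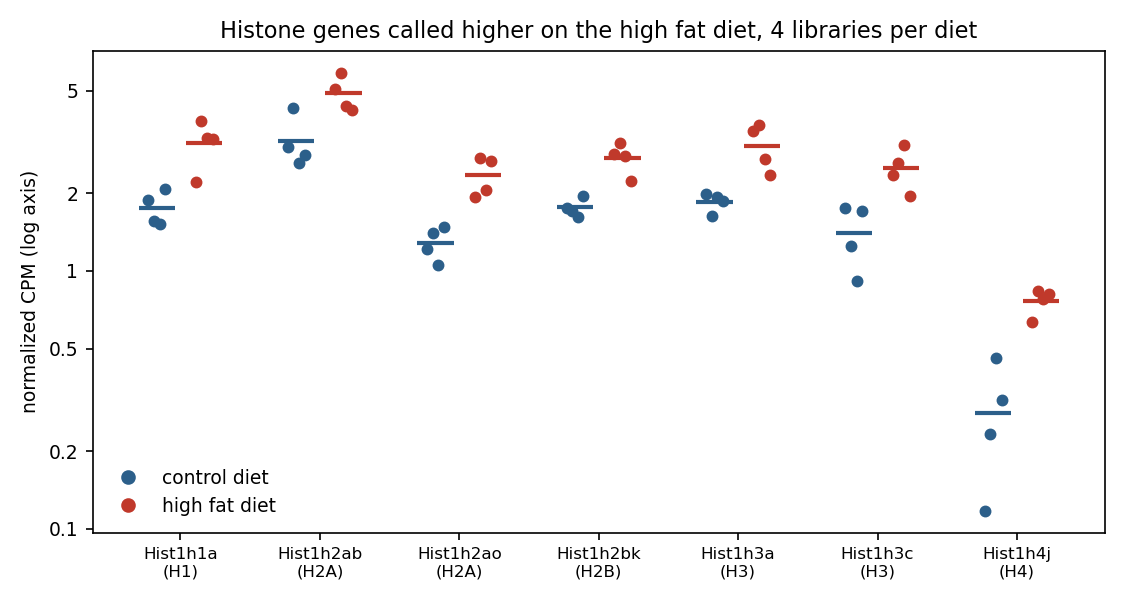
Normalized CPM (log axis) of the 7 histone genes called higher on the high fat diet, by gene and type. Each point is 1 library (4 per diet) and each bar the mean of a diet. For 6 genes all high fat points lie above all control points, and for Hist1h2ab control J, at 4.28, lies above high fat G, at 4.22. The genes were called from these same libraries, so little overlap follows from their choice. Such separation held for 8.31% of all tested genes.

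Hist1h1a, the gene of linker histone H1.1, lies at chr13:23763666-23764406 on the plus strand (GENCODE M21, GRCm38). It stood at 2.21, 3.82, 3.29 and 3.25 CPM in high fat A, B, F and G and at 1.88, 1.56, 1.52 and 2.08 CPM in control I, J, L and M. Every high fat library was above every control library, with high fat A closest to the controls. The log2 fold change was 0.82 ± 0.18 (SE; edgeR adjusted p = 0.0205). Its transcripts shared 0% of their 50-base windows with any other member, and its expected counts were whole numbers in all 8 libraries (20 to 82 counts, within 0.005), so no reads were divided between copies. The call was lost without control J, control L, high fat F or high fat G, where the adjusted p reached 0.0572 and log2 fold changes were 0.71 to 0.95 over all 8 omissions.

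The 5 other H1 genes differed in level and size of change. Hist1h1d was above the controls in all high fat libraries, at 4.59 to 5.83 CPM against 2.33 to 4.51 CPM, with a log2 fold change of 0.52 ± 0.16 that missed the threshold (edgeR adjusted p = 0.0689). Hist1h1c, the most abundant H1 gene, stood at 179, 208, 156 and 134 CPM on the high fat diet and at 168, 117, 134 and 145 CPM on the control diet. High fat A and B were the highest but the diets overlapped (log2 0.26 ± 0.13, edgeR adjusted p = 0.238). Hist1h1e had a log2 fold change of 0.15 ± 0.11 (edgeR adjusted p = 0.392) and Hist1h1b of 0.57 ± 0.32 (0.275). Hist1h1t, the testis H1 gene, held 17 counts in all and was not tested.

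Hist1h2ab (chr13:23751126-23751598, plus strand) encodes H2A. It stood at 5.06, 5.87, 4.35 and 4.22 CPM in high fat A, B, F and G and at 3.01, 4.28, 2.61 and 2.81 CPM in control I, J, L and M. Control J reached the range of the high fat libraries. The log2 fold change was 0.66 ± 0.17 (edgeR adjusted p = 0.0317), and the call was kept only without control J or without high fat G among the 8 omissions (log2 0.56 to 0.79, highest adjusted p 0.0813). Its closest copy, Hist1h2ai, shares 58.0% of its windows. The sum of both separated the diets, at 5.38 to 6.64 CPM against 2.95 to 4.29 CPM. Hist1h2ai itself passed the count limit of the filter in 3 high fat libraries and 1 control library.

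Hist1h2ao (chr13:21810465-21810944, plus strand), the other H2A gene, was at 1.94, 2.75, 2.05 and 2.68 CPM on the high fat diet and at 1.21, 1.40, 1.06 and 1.48 CPM on the control diet. All high fat values were above all control values, and the log2 fold change was 0.88 ± 0.18 (edgeR adjusted p = 0.0142). It was the only member called in all 8 fits that left out 1 library, but not in the fit without both control J and high fat G. Hist1h2ao shares 93.5% of its windows with Hist1h2ap, of whose 13.1 expected counts 12.9 were assigned in control J. Summed over both copies, the controls stood at 1.22, 2.40, 1.04 and 1.48 CPM and the high fat libraries at 1.93 to 2.75 CPM, so the diets overlapped through control J.

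The remaining H2A members included large changes at low counts. Hist1h2af was at 0.587 to 1.23 CPM on the high fat diet and at 0.141 to 0.695 CPM on the control diet, with overlap (log2 1.197 ± 0.40, edgeR adjusted p = 0.0816). Hist1h2ai had a log2 fold change of 1.11 ± 0.55 (0.222). Hist2h2aa1, which supplies most H2A RNA here, was at 122 to 150 CPM against 114 to 135 CPM (log2 0.14 ± 0.08, edgeR adjusted p = 0.273). Its copy Hist2h2aa2, all of whose windows are shared, had the only log2 fold change below -1 among the members, -1.03 ± 0.42 (edgeR adjusted p = 0.140), at 0.316 to 1.18 CPM against 0.587 to 1.71 CPM. It was called lower without high fat G (log2 -1.57). Hist2h2ac and Hist3h2a had log2 fold changes of -0.14 ± 0.10 and 0.15 ± 0.09 and were not called.

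Among H2B genes, Hist1h2bk (chr13:22035870-22036345, plus strand) was called. It stood at 2.84, 3.12, 2.79 and 2.23 CPM in high fat A, B, F and G and at 1.76, 1.71, 1.62 and 1.96 CPM in control I, J, L and M. High fat G was nearest the controls and there was no overlap (log2 0.63 ± 0.14, edgeR adjusted p = 0.0223). The call was kept only without control M or high fat G among the omissions (highest adjusted p 0.0603). Its closest copy, Hist1h2br, shares 66.5% of its windows, and the sum of both also separated the diets, at 2.62 to 3.54 CPM against 1.76 to 2.29 CPM.

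The most abundant H2B gene did not move with diet beyond its spread. Hist1h2bc stood at 234, 256, 210 and 194 CPM on the high fat diet and at 224, 216, 221 and 209 CPM on the control diet. The control values lay inside the high fat range (log2 0.04 ± 0.08, edgeR adjusted p = 0.803). Hist2h2be, at 4.38 to 4.89 CPM against 5.005 to 5.76 CPM, was the single tested member with all high fat libraries below all controls (log2 -0.21 ± 0.10, edgeR adjusted p = 0.203). That separation held for 9.2% of all tested genes, and the opposite one, seen in 8 members, for 8.31%. Hist2h2bb was at a log2 fold change of 0.09 ± 0.13.

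Both called H3 genes lie close to other called or tested Hist1 genes. Hist1h3a (chr13:23761853-23762386, minus strand) was at 3.48, 3.68, 2.71 and 2.36 CPM on the high fat diet and at 1.99, 1.63, 1.94 and 1.86 CPM on the control diet. The lowest high fat value, in G, was above the highest control value (log2 0.69 ± 0.17, edgeR adjusted p = 0.0258). The call was kept without control M, high fat F or high fat G. Hist1h3c (chr13:23744973-23745602, minus strand) was at 2.35, 2.61, 3.08 and 1.95 CPM against 1.76, 1.24, 0.917 and 1.70 CPM. The diets did not overlap (log2 0.81 ± 0.22, edgeR adjusted p = 0.0425), and its call was kept only without control M or high fat G (highest adjusted p 0.120).

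Copies of these H3 genes were compared as sums. Hist1h3a and Hist1h3h, which share 45.2% of the windows of Hist1h3a, gave 3.65 to 5.58 CPM against 2.76 to 3.26 CPM without overlap. Hist1h3c and Hist1h3b gave 2.87 to 4.12 CPM against 1.17 to 2.89 CPM, which overlapped. Among uncalled H3 genes, Hist1h3f, the Hist1 H3 gene with the highest level per length, had a log2 fold change of 0.18 ± 0.12 and Hist2h3b of 0.19 ± 0.17. Hist1h3g, at 0.0706 to 0.758 CPM in controls, had one of 0.94 ± 0.48 (edgeR adjusted p = 0.236).

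Hist1h4j (chr13:21735064-21735837, plus strand), the called H4 gene, had the largest log2 fold change of the members, 1.37 ± 0.32 (edgeR adjusted p = 0.0247). It stood at 0.632, 0.839, 0.780 and 0.812 CPM on the high fat diet and at 0.117, 0.233, 0.459 and 0.316 CPM on the control diet. The diets did not overlap, but the values rest on 14.2 to 20.2 expected counts against 2.91 to 13.3. Hist1h4j shares 24.6% of its windows with the abundant Hist1h4h, so divided reads may enter its values. Summed over both, the diets overlapped, at 95.3 to 129 CPM against 81.0 to 106 CPM. That sum is mostly Hist1h4h (mean 99.4 CPM against 0.524 CPM), so it cannot show whether Hist1h4j changed. Hist1h4j passed the filter on low counts in all 4 high fat libraries and 1 control library. The call was kept only without control L, control M or high fat A.

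The abundant H4 genes were not called. Hist1h4h stood at 108, 128, 94.5 and 98.0 CPM on the high fat diet and at 106, 94.3, 84.9 and 80.7 CPM on the control diet, with overlap (log2 0.23 ± 0.11, edgeR adjusted p = 0.193). Hist1h4c had a log2 fold change of 0.07 ± 0.10, Hist1h4d of 0.05 ± 0.08 and Hist1h4m of 0.17 ± 0.12. Hist2h4 was at 6.86 to 8.26 CPM on the high fat diet and at 7.90, 12.1, 7.23 and 7.64 CPM on the control diet, where control J stood apart. Its log2 fold change of -0.14 ± 0.15 turned to 0.03 without control J. Hist4h4 was at 16.8 to 25.1 CPM against 17.7 to 23.5 CPM (log2 -0.09 ± 0.13).

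The direction of members was counted for each cluster. By mean CPM, with all members counted whether tested or not, 48 of 54 Hist1 genes were higher on the high fat diet, 5 lower and 1, Hist1h4n, listed at 0 throughout. In Hist2 to Hist4, 7 of 14 were higher and 7 lower. Of the tested genes, 41 of 42 in Hist1 and 6 of 13 elsewhere had a log2 fold change above 0, beside 49.5% of all tested genes. The median log2 fold change was 0.47 in Hist1 and -0.09 in Hist2 to Hist4, and 0.30 over the 55 tested members against -0.0023 over all tested genes. The Hist2 to Hist4 median turned to 0.031 without control J, with 7 of 13 above 0, and to 0.086 in the fit lacking control J and high fat G, with 8 of 13 above 0. Members could pass the filter mainly through the high fat diet, as 10 tested members exceeded the count limit in more high fat than control libraries. Of those beyond it in all 8 libraries, 28 of 28 in Hist1 and 5 of 11 elsewhere were above 0. Signs in Hist1 are not separate observations, as its members shared a median of 49.6% of their windows with other members. Whether the clusters differ was not tested.

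The number of calls depended on single libraries. With 1 library left out, 2 members were called higher without control I, beside 2.92% of all tested genes, 2 without control J (2.84%), 2 without control L (3.45%) and 10 without control M (5.13%). There were 3 without high fat A (3.4%), 2 without high fat B (4.07%), 2 without high fat F (2.84%) and 6 without high fat G (3.42%). Without both control J, which had the Rn45s excess, and high fat G, 3 members were called (1.66%), namely Hist1h2ab, Hist1h2bk and Hist1h3a. Limma on the deposited FPKM called 4 members higher (0.485%) and on FPKM rescaled without Rn45s 8 (4.71%). When the test was limited to genes averaging 5 CPM or more, 6.05% of genes and 0 members were called higher.

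High fat B was the highest library for Hist1h2bc, Hist1h1c, Hist1h4h and Hist1h4c. Without it, 37 of 42 tested Hist1 genes were above 0, the Hist1 median was 0.35, and the 2 members called were Hist1h1a and Hist1h2ao. High fat B also had the highest histone sum, the highest sum of other RNAs that lack a poly(A) tail (8874 CPM, mostly Rpph1 and Rmrp) and, with 13.3%, the largest Rn45s share after control J. Control J came close to it in those other RNAs, at 8595 CPM, but its histone sum was 880 CPM, within the range of the controls. With all libraries none of 3 tested RNAs of that kind was called by edgeR (Rpph1 log2 -0.61 ± 0.36, 0 at an unadjusted p under 0.05), and without high fat B Rpph1 (log2 -1.20, edgeR adjusted p = 0.0101) and Rnu12 (log2 -0.91, 0.0293) were called lower. The part of these values in the result was not tested.

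**Figure D2:**
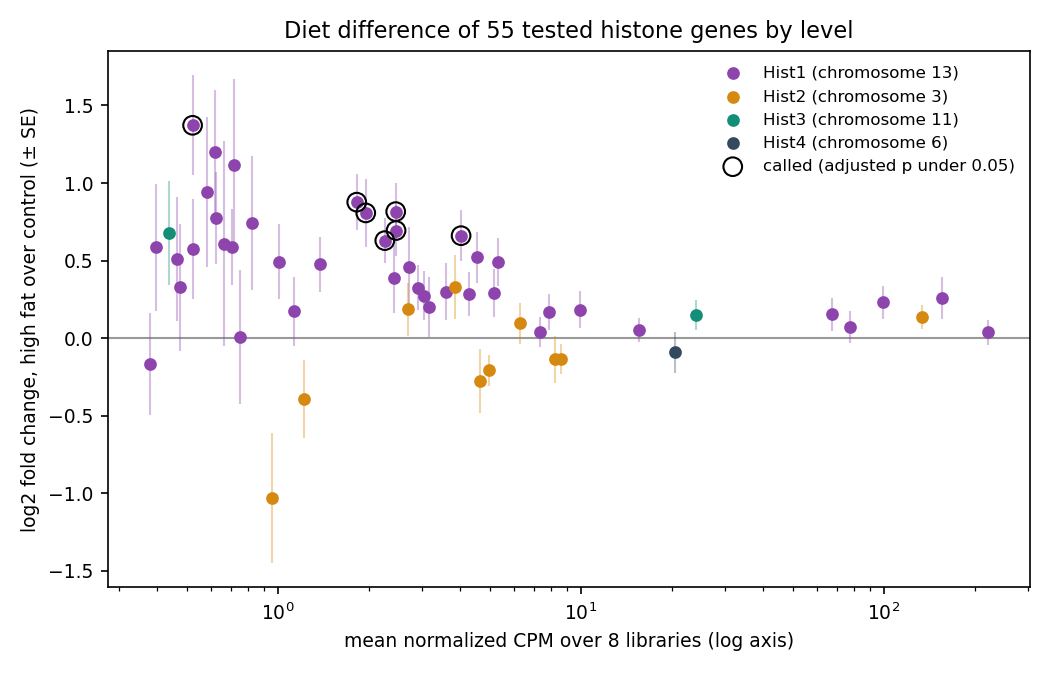
Log2 fold change (high fat over control, ± SE) against mean normalized CPM (log axis) for the 55 tested histone genes, coloured by cluster, with circles around the 7 called genes. Called genes lie below 5 CPM, the most abundant genes lie near 0, and 7 of the 8 points below 0 are outside Hist1.

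In Hist1, the median log2 fold change was lower in abundant members than in low ones. It was 0.17 in the 11 members of at least 5 CPM, with 0 called, and 0.57 in the 31 tested members below. The 31 include all 7 called genes and 9 members that exceeded the count limit in more high fat than control libraries. Their median could thus be partly set by the filter. In Hist2 to Hist4 the median was 0.0008 in 6 members and -0.21 in the 7 tested below 5 CPM, with 0 called. Level and cluster are thus mixed in the values over all clusters that follow. The 17 members with a mean of at least 5 CPM had a median log2 fold change of 0.14 and no call (edgeR), although they are the better measured ones; 1 of them was higher at an unadjusted p under 0.05. Of the 51 members under 5 CPM, 38 were tested and 7 called. Among all tested genes, 5.17% of those at or above 5 CPM and 3.98% of those below were called higher. Across the 55 tested members, Spearman's rho between log2 fold change and log2 mean CPM was -0.54, and over all tested genes it was -0.079. These genes share libraries and reads, so the correlation is given as a description. The 10 members that exceeded the count limit in more high fat than control libraries had a median of 0.76, a value their way through the filter could set. Over the 39 members beyond the limit in all 8 libraries rho was -0.56, and the median log2 fold change was 0.36 in the 22 members under 5 CPM against 0.14 in the 17 others.

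Sums over members avoid the division of reads between copies of a type. All 68 members together stood at 1015, 1149, 946 and 867 CPM in high fat A, B, F and G and at 973, 880, 858 and 881 CPM in control I, J, L and M. The diets overlapped, with means of 994 ± 119 and 898 ± 51.4 CPM (SD, n = 4), a ratio of 1.11, or 1.05 without high fat B. Hist1 summed to 768 ± 105 against 683 ± 47.3 CPM, Hist2 to 180 ± 14.5 against 171 ± 13.6 CPM, Hist3 to 26.2 ± 3.08 against 23.3 ± 2.14 CPM and Hist4 to 19.8 ± 3.67 against 21.2 ± 2.78 CPM. Each cluster overlapped between diets.

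Low members of Hist1 separated as sums. The 43 Hist1 members with a mean under 5 CPM, a division chosen after their values were seen, summed to 59.4, 75.6, 62.5 and 61.1 CPM on the high fat diet and to 45.5, 44.2, 42.2 and 50.6 CPM on the control diet. All high fat sums were higher, at a ratio of 1.42 (1.34 to 1.47 with 1 library left out). They rest on 569 to 1621 expected counts. These members include all 7 called genes and 9 of the 10 that exceeded the count limit in more high fat than control libraries. The separation was thus partly set by the choice, also by type, and omitting a library does not remove this. Abundant copies were left out, so reads divided with them still matter. By type, these members separated the diets for H1 (9.33 ± 0.92 against 5.92 ± 1.28 CPM), H2A (18.6 ± 1.78 against 12.6 ± 1.43), H2B (10.03 ± 1.08 against 7.66 ± 0.47) and H3 (14.0 ± 1.70 against 9.45 ± 0.79). For H4 they overlapped (12.8 ± 2.87 against 10.1 ± 0.83).

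**Figure D3:**
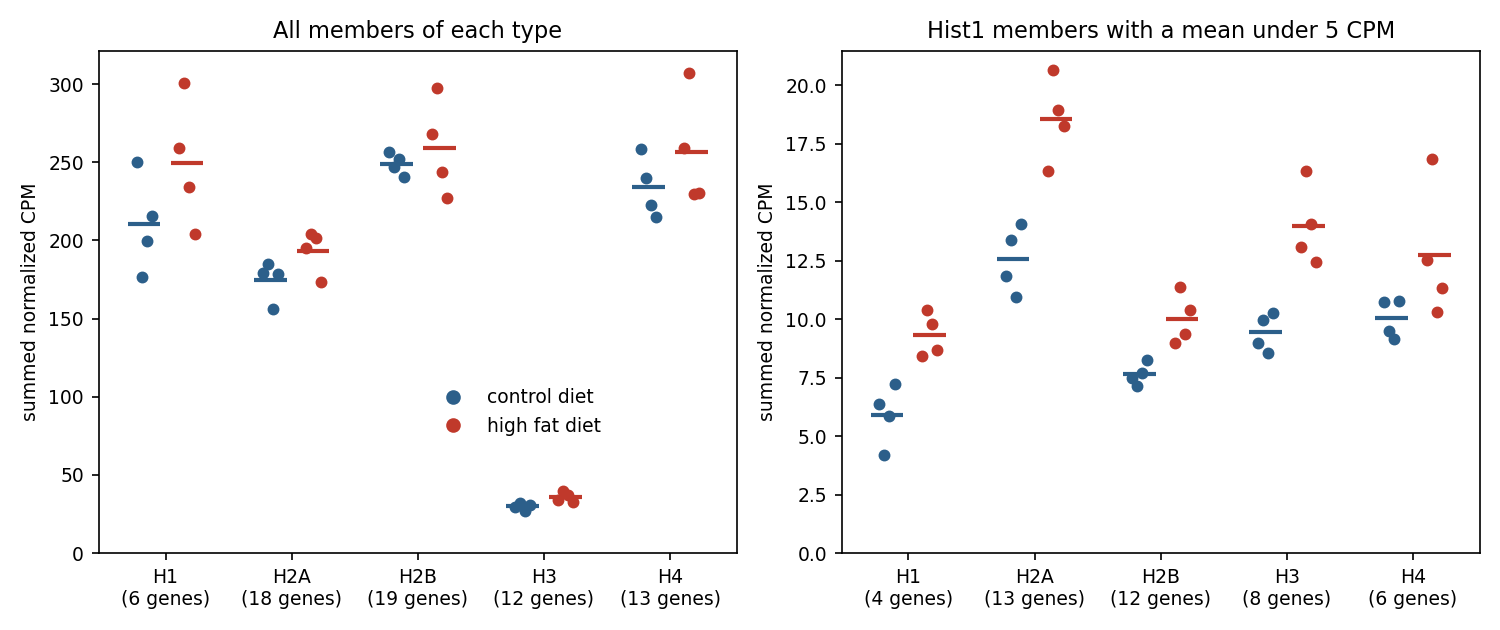
Summed normalized CPM of each histone type, for all 68 members (left) and for the 43 Hist1 members with a mean under 5 CPM (right). Points are libraries, 4 per diet, and bars are diet means. In the left plot only H3 separates the diets, and in the right plot H1, H2A, H2B and H3 do. The members on the right were chosen after their values were seen and include all 7 called genes.

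Totals of each type were compared between diets, and the part of the low genes in them was not tested. H3 was the type with the smallest total, 35.9 ± 3.26 against 29.9 ± 2.22 CPM, and the only one whose total did not overlap between diets (ratio 1.201). H1 summed to 249 ± 40.9 against 211 ± 31.1 CPM, a ratio of 1.184, close to that of H3 but with a larger spread and overlap. H2A summed to 193 ± 13.8 against 175 ± 12.6 CPM (ratio 1.109) and H2B to 259 ± 30.5 against 249 ± 6.88 CPM (1.041). H4 summed to 256 ± 36.5 against 234 ± 19.2 CPM (1.096), and these 3 types also overlapped. By counts, 1 of 5 tested H1, 2 of 14 H2A, 1 of 12 H2B, 2 of 12 H3 and 1 of 12 H4 genes were called, beside 4.86% of all tested genes called higher.

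On chromosome 13, the Hist1 genes lie in 4 blocks separated by over 100 kb. The first, chr13:21715763-21837530, holds 18 genes, of which 11 were tested and 2 called (Hist1h4j and Hist1h2ao). The second, chr13:22035164-22043676, holds 5 tested genes with 1 called (Hist1h2bk). The third, chr13:23531050-23764406, holds 29 genes, with 26 tested and 4 called (Hist1h3c, Hist1h2ab, Hist1h3a and Hist1h1a). The fourth holds Hist1h2ba and Hist1h2aa, known from testis, each with at most 1.17 expected counts in all. In that order, without the fourth, median log2 fold changes were 0.57, 0.39 and 0.33, and 10 of 11, 5 of 5 and 26 of 26 tested genes were above 0. Over all tested genes, 4.86% were called higher and 49.5% were above 0. Hist1 members shared a median of 49.6% of their windows with other members, so their signs are not separate observations.

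**Figure D4:**
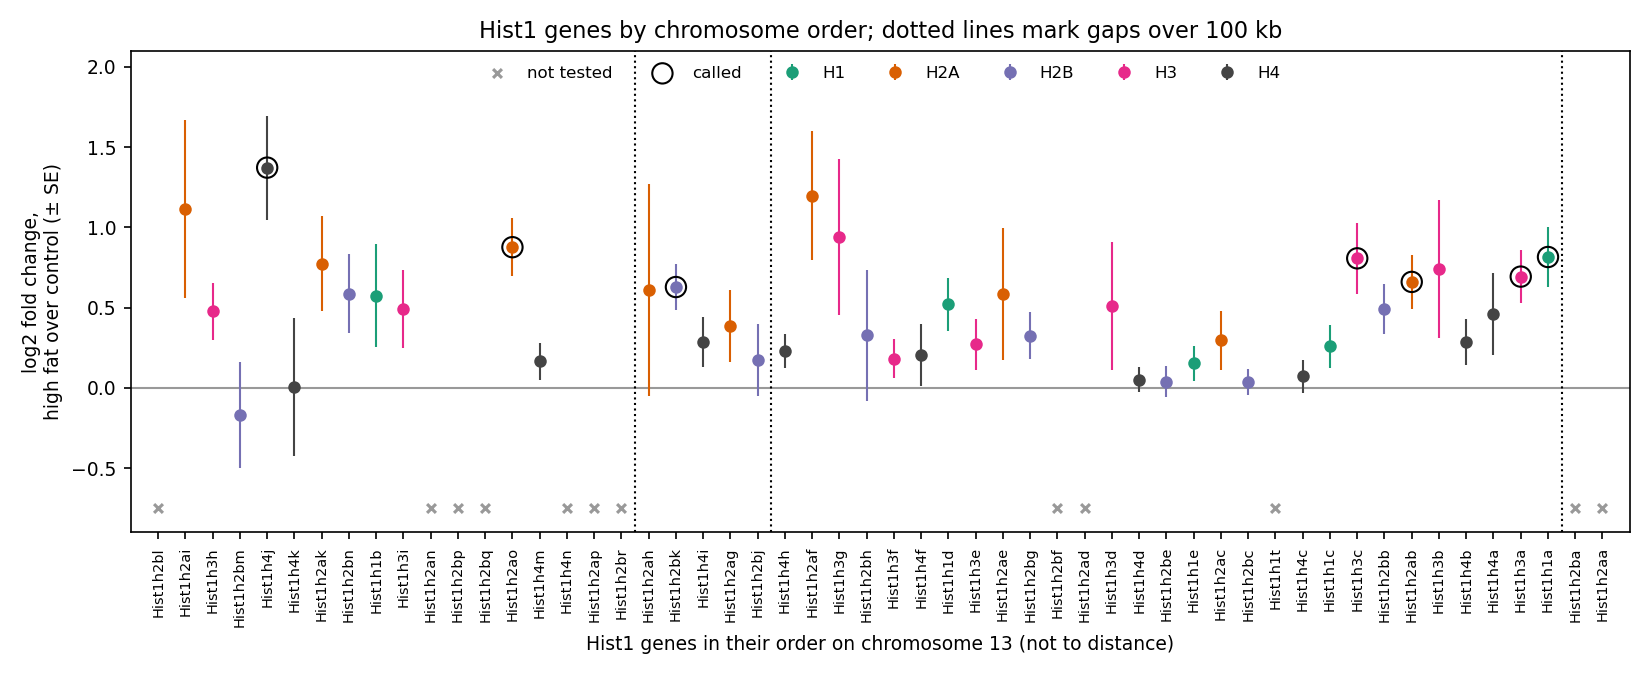
Log2 fold change (high fat over control, ± SE) of the Hist1 genes in their order on chromosome 13, coloured by type, with gaps over 100 kb as dotted lines. Circles mark the 7 called genes, of which none falls in the last block, and crosses mark genes that were not tested.

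Neighbouring genes that point away from each other may share upstream sequence. Over all clusters, 16 such pairs had starts at most 1500 bases apart, and 5 of the 7 called genes belonged to one. Most genes in these pairs were not called or not tested, and 4.86% of all tested genes were called higher. Whether pairing goes with the calls was not tested. In the pair Hist1h3a and Hist1h1a, 1280 bases apart, both were called. Hist1h2bk and its partner Hist1h2ah, 302 bases apart, had log2 fold changes of 0.63 and 0.61, the second with an SE of 0.66. Hist1h3c and Hist1h2bb, 1132 bases apart, were at 0.81 and 0.49. Hist1h2bc and Hist1h2ac, 251 bases apart, were at 0.04 and 0.30, and the Hist2 pair Hist2h2ac and Hist2h2be, 239 bases apart, was at -0.14 and -0.21.

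Other genes of the cell cycle were followed in a list of 30 S phase and mitosis genes, since histone supply is tied to DNA replication. Of 28 tested, 6 were called higher, 1 lower and 21 not called, with a median log2 fold change of 0.46. Over all tested genes, 4.86% were called higher and 5.13% lower, with a median of -0.0023. This list was chosen with earlier results of these data known. Mki67, a marker of cycling cells, stood at 12.1, 12.96, 18.4 and 13.9 CPM on the high fat diet and at 5.79, 4.28, 5.47 and 8.34 CPM on the control diet. No values overlapped (log2 1.23 ± 0.19, edgeR adjusted p = 0.0040). Top2a, which untangles DNA in mitosis, was at 5.10 to 7.48 CPM against 2.41 to 3.60 CPM (log2 0.95 ± 0.15, edgeR adjusted p = 0.0049), and both were called in all 8 fits with 1 library left out. Ccnb1, the mitotic cyclin B1, had a log2 fold change of 1.43 ± 0.30 (edgeR adjusted p = 0.0151). E2f1, an activator of S phase genes, had one of 1.00 ± 0.21 (0.0169), the mitotic kinase Cdk1 one of 1.27 ± 0.32 (0.0319) and cyclin B2, Ccnb2, one of 0.92 ± 0.26 (0.0485). The call of Cdk1 was kept in 5 and that of Ccnb2 in 1 of the 8 fits with 1 library left out.

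Of Pcna and the 6 Mcm genes, 1 was called. Pcna, the sliding clamp, was at 30.1 to 37.3 CPM against 31.3 to 35.2 CPM (log2 -0.07 ± 0.08, edgeR adjusted p = 0.591). Mcm6, a subunit of the replicative helicase, was called lower, at 15.7 to 19.2 CPM against 21.9 to 28.6 CPM (log2 -0.46 ± 0.10, edgeR adjusted p = 0.0145). Mcm2, Mcm3, Mcm4, Mcm5 and Mcm7 had log2 fold changes of 0.19, 0.02, 0.03, 0.04 and 0.28 and were not called. Without both control J and high fat G, 4 genes of the list were called higher and none lower. The part of cycling cells in the histone result was not tested.

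**Figure D5:**
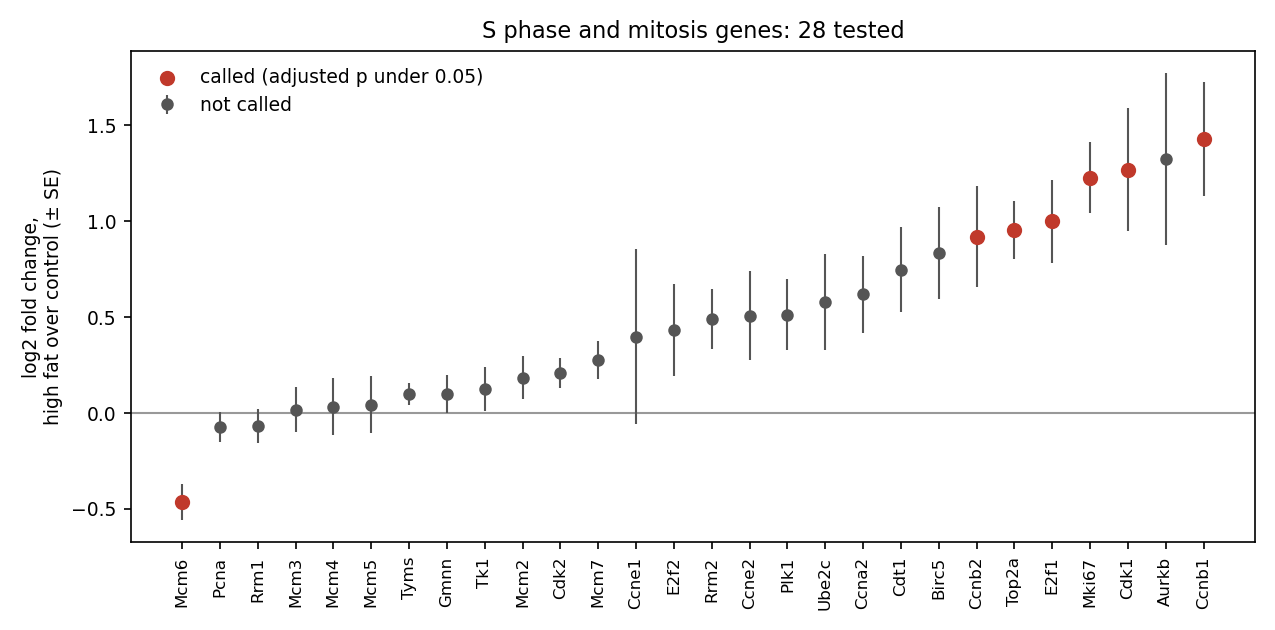
Log2 fold change (high fat over control, ± SE) of the 28 tested S phase and mitosis genes in order of size, called genes in red. Mki67, Top2a, Ccnb1, Cdk1, E2f1 and Ccnb2 were called higher and Mcm6 lower, and Pcna, Mcm3, Mcm4 and Mcm5 lie near 0.

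Of 22 tested genes that transcribe histone genes or process their mRNA, none was called higher and 1 lower, against 4.86% and 5.13% of all tested genes. The median log2 fold change of the 22 was -0.14. At an unadjusted p under 0.05 there were 0 higher and 10 lower, against 13.3% and 14.1% of all tested genes. The gene called lower was Snrpb, a core protein of the spliceosome also listed for the U7 particle. It was at 69.5 to 77.6 CPM against 83.3 to 89.2 CPM (log2 -0.20 ± 0.05, edgeR adjusted p = 0.0429). Its call was lost in each of the 8 fits with 1 library left out. Slbp, which binds the stem-loop, was at 14.5 to 18.2 CPM against 17.8 to 19.8 CPM (log2 -0.14 ± 0.08, edgeR adjusted p = 0.273). Npat had a log2 fold change of 0.08 ± 0.06 and Casp8ap2, its partner in histone locus bodies, of -0.14 ± 0.06 (edgeR adjusted p = 0.171). The log2 fold change was above 0 for 4 of the 22. Snrpb, Casp8ap2, Cpsf2, Cpsf3, Cstf2 and Snrpf had all high fat libraries below all controls, which held for 9.2% of all tested genes. Lsm10, a protein of the U7 particle, had all high fat libraries above all controls (log2 0.16 ± 0.08, edgeR adjusted p = 0.256), which held for 8.31%.

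None of 10 tested replication-independent variants was called by edgeR, 0 passed an unadjusted p of 0.05, and their median log2 fold change was 0.03. H3f3a, H3f3b, H2afz, H2afx and H1f0 had log2 fold changes of -0.12 ± 0.07, 0.03 ± 0.07, -0.10 ± 0.06, 0.16 ± 0.13 and 0.03 ± 0.08. Of 17 chaperones, 1 was called, higher, beside 4.86% called higher and 5.13% lower over all tested genes. It was Chaf1a, the large subunit of the factor that deposits H3 and H4 behind the replication fork. At an unadjusted p under 0.05, 1 chaperone was higher and 5 were lower, against 13.3% and 14.1% of all tested genes. Ssrp1, a chaperone of H2A and H2B, had all high fat libraries below all controls (log2 -0.13 ± 0.05, edgeR adjusted p = 0.136), as did 9.2% of all tested genes. Chaf1a stood at 2.80 to 4.62 CPM against 1.87 to 2.86 CPM (log2 0.76 ± 0.18, edgeR adjusted p = 0.0257), and the call was kept in 3 of 8 omissions.

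Markers of other cells were measured beside these results. Of T, B and NK cell markers, 13 in all, 7 were tested and none called by edgeR, with 0 at an unadjusted p under 0.05. They summed to 5.69 to 7.40 CPM on the high fat diet and to 5.28 to 6.56 CPM on the control diet, and none was at 0 in all libraries. Macrophage markers (11 tested, none called, 0 at an unadjusted p under 0.05) summed to 260 to 335 CPM against 221 to 307 CPM. Red cell markers (7 tested, none called, 2 higher at an unadjusted p under 0.05) summed to 442 to 2349 CPM against 408 to 910 CPM, the highest in high fat G, without which 6 histone genes were called higher. Of the 10 cortex markers, Slc34a1 was called higher (log2 0.33 ± 0.09, edgeR adjusted p = 0.0495) and Cubn lower (log2 -0.26 ± 0.06, 0.0182), with 3 higher and 3 lower at an unadjusted p under 0.05. Over all tested genes, 4.86% were called higher and 5.13% lower, and 13.3% were higher and 14.1% lower at that unadjusted p. The call of Slc34a1 was kept in 2 of the 8 fits with 1 library left out (highest adjusted p 0.130), and that of Cubn was lost without high fat F. The part of these cells in the histone result was not tested.

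In the authors' deposited table by gene symbol, 5 histone genes are listed, all with a ratio of high fat over control above 1: Hist1h2ao at 1.82, Hist1h1a at 1.79, Hist1h3c at 1.75, Hist1h3a at 1.64 and Hist1h2ab at 1.54. Of all 1133 genes in that table, 540 have a ratio above 1. The authors' deposited table by Ensembl gene also lists 5, again all above 1, with Hist1h1a, Hist1h2ab and Hist1h3a in both, and of its 1175 genes 562 have a ratio above 1. Its other entries are Hist1h2ad at 3.39 and Hist1h2ah at 2.005, of which Hist1h2ad was too low for the test here and Hist1h2ah was not called. These tables come from the same libraries and are not independent of the values above.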

How the data were processed

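RNA was sequenced from 8 libraries of mouse outer renal cortex, 4 per diet. The submitters' processing notes name CASAVA 1.8.2, RSEM 1.2.9 and the mm10 build. The authors deposited expected counts per gene symbol, which RSEM estimates by dividing reads between similar genes, and FPKM values for the same symbols. Tables of the authors' own comparison, also deposited, hold for each listed gene a ratio between the diets and a score, the posterior probability that expression is equal. Which tool made them is not stated in the sources used here.

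After Rn45s was removed, the expected counts were rounded and diet was tested in R 4.3.3 by the quasi-likelihood test of edgeR 4.0.16 with TMM factors and Benjamini-Hochberg adjustment, called at an adjusted p under 0.05. Genes were kept by filterByExpr, which asked for 0.411 CPM in at least 4 libraries and 15 counts in all. SEs were derived from the size of the log2 fold change and its F value. CPM came from rounded counts, and sums of a gene with its closest copy from unrounded ones. Shared windows are the percentage of 50-base windows in GENCODE M21 transcripts of a member that occur in another member, and positions are from that annotation. Upstream sequences are those of RefSeq. Alternatives used DESeq2 1.42.0 and limma 3.58.1, and fits were tested on simulated data.

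Named members were those called, the 10 highest per length, the highest in each cluster and type, and the 5 with the largest and the 5 with the most significant change. A few others were named after their values were seen. The members and all gene lists were chosen with earlier results of these data known, so they are described by counts and medians. The planned comparison of member proteins was not made.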

Additional observations from a re-analysis of the deposited data

Results flagged for a closer look

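Single libraries stood apart in 7 of 114 groups of 4 values examined, where chance gives about 1 in 20. Hist1h4m was at 6.03 CPM in control L and at 7.74 to 8.09 CPM in the other controls. Hist2h4 was at 12.1 CPM in control J and at most 7.90 CPM in the others. The Hist1 sum was 753 CPM in control I and at most 666 CPM in the other controls, and the sum of Hist1 H3 genes was 28.02 CPM in high fat B against 23.2 to 23.6 CPM. Pcna was at 37.3 CPM in high fat B and at most 30.9 CPM in the other high fat libraries, and at 31.3 CPM in control M against 34.6 to 35.2 CPM. Rn45s took 50.3% of control J and at most 5.70% of the other controls.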

How the results depend on the processing

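The 7 histone genes called higher became 2 to 10 with 1 library left out, the libraries being named above, and 3 with high fat G and control J both left out. They became 4 on deposited FPKM with a pseudocount of 0.1, and 0 among genes of at least 5 CPM, where none of the 7 is tested; the cause of the others was not tested. Genes called lower ran from 0 to 1. On deposited FPKM the median of all genes rose to 0.14 (pseudocount 0.1) or 0.11 (pseudocount 1) on the log2 scale, and at 0.1 Hist1h4j was the 1 of the 7 still called. All 7 were among the 8 calls on rescaled FPKM. The median over tested histone genes ran from 0.23 to 0.35 with 1 library left out and was 0.48 on FPKM (pseudocount 0.1) and 0.14 at 5 CPM or more, where 14 genes were above 0 (42 to 48 with 1 library left out). The ratio of the sum over all members ran from 1.05 to 1.15.

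S phase and mitosis genes called higher ran from 4 to 8 with 1 library left out, with 1 lower each time. On FPKM at either pseudocount 2 were higher and 0 lower, and at 5 CPM or more 1 was higher. With high fat G and control J both left out, 0 were lower. Histone processing genes called lower ran from 0 to 2, with 3 by DESeq2, 2 by limma-voom, and 0 with DESeq2 size factors, library size alone, FPKM, length trend removed, or both of those libraries left out.

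Among the named members, directions turned for uncalled genes. Without high fat B, Hist1h2bc became -0.036 (to 0.098 over the omissions), Hist1h4c -0.043 (to 0.14) and Hist2h2bb -0.019 (to 0.18), as did Hist1h2be (-0.021) and Hist1h4k (-0.23) among the other tested members, and without control M, Hist1h4d became -0.0029 (to 0.088). On FPKM (pseudocount 0.1, then 1), Hist2h2ac became 0.0047 and 0.0024, Hist2h4 0.011 and 0.0099, and Hist4h4 0.047 and 0.035. Hist2h4 ran from -0.21 to 0.031, the latter without control J. In the fit lacking both that library and high fat G, Hist2h4 was 0.086 and Hist4h4 0.026. All 7 called genes stayed above 0 in every alternative that tested them. No paired analysis was possible because the library letters differ between the diets. Depth limits genes under 1 CPM, and reads divided between copies limit genes such as Hist1h2ao.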
